A study of Danio rerio with 15 samples.

Results

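The Hox genes encode homeodomain transcription factors that give cells of the embryo their position along the head-to-tail axis and along fins and limbs. They lie in clusters, and within a cluster the genes are used in order: low paralogue numbers towards the head, high numbers towards the tail and the tips of appendages. Adult human skin fibroblasts are known to keep Hox patterns that differ between body sites. Members were all probe sets whose single gene symbol in the platform annotation starts with hoxa, hoxb, hoxc or hoxd followed by a number. This gave 59 of 15502 probe sets, for 42 genes in 7 clusters (hoxaa, hoxab, hoxba, hoxbb, hoxca, hoxcb and hoxda). The RefSeq gene table (assembly GRCz12tu) lists 49 protein-coding Hox genes. The 7 without a member, for which no value was analysed here, were hoxa13a, hoxb1b, hoxb13a, hoxc10a, hoxc12a, hoxc13b and hoxd12a. All 59 gene IDs matched that table.

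Total RNA of zebrafish (Danio rerio) was measured on 15 Affymetrix arrays, 1 per sample. The 6 melanomas and the 6 pieces of mutant skin, cut from immediately beside a melanoma, both came from fish of the mitf-BRAFV600E;p53-/- line. It carries a mutant BRAF transgene under the mitf promoter, which is active in pigment cells and their precursors, on a background homozygous for mutant p53, so both changes are shared by tumour and neighbouring skin. The 3 wild-type skin samples came from Tu fish and span the side of the body. Fish were 4 to 8 months old. The labels give no body site for any melanoma or its neighbouring skin, no sex, no pooling and no scan batch, and nothing there says that a melanoma and a mutant skin sample of the same number came from 1 fish. Strain and genotype cannot be told apart between mutant and wild-type skin. The same holds between melanoma and wild-type skin, where tumour state differs too.

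Values are deposited log2 values, each set against a per-probe-set baseline that the sources used here do not define, so changes between arrays can be read and absolute levels cannot. No probe set's value is set against another's. The lowest member value was -3.38, above the floor of the data at -6.64. No filter on low values was used, and all 59 members were tested. Several arrays stand apart, and their part in the results was not tested. The mean of 17 oocyte genes was 3.34 to 7.39 in 7 arrays (mutant skin 1, 2, 4 and 6, melanoma 6, wild-type skin 1 and 2) and -1.21 to 0.99 in the other 8. The mean of 7 melanocyte genes checks the tumour label: it was 2.21 to 2.74 in melanoma 1 to 5, -0.06 in melanoma 6, -3.38 to -0.76 in mutant and -3.50 to -3.08 in wild-type skin, with 7 of 7 probe sets higher in melanoma than in either skin. Skeletal muscle genes (22 measured) averaged -4.31 to 0.04 in melanoma, highest in melanoma 6, against 1.58 to 2.73 in wild-type skin. Keratinocyte genes (18 measured) averaged -2.63 to -0.15 in melanoma and 0.78 to 2.3 in wild-type skin. Intestine, liver and pancreas genes (12 measured) averaged 5.17 in mutant skin 4, 2.33 in mutant skin 1 and 2.15 in melanoma 6. In the remaining arrays they averaged -0.75 to 1.75. Numbers 2 and 6 of the mutant skins had the lowest muscle (-0.50 and 0.06) and keratinocyte levels (-1.09 and 0.12) of the 6 mutant skin arrays. In whole tissue, fewer cells of a type and less RNA per cell cannot be told apart.

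**Figure D1:**
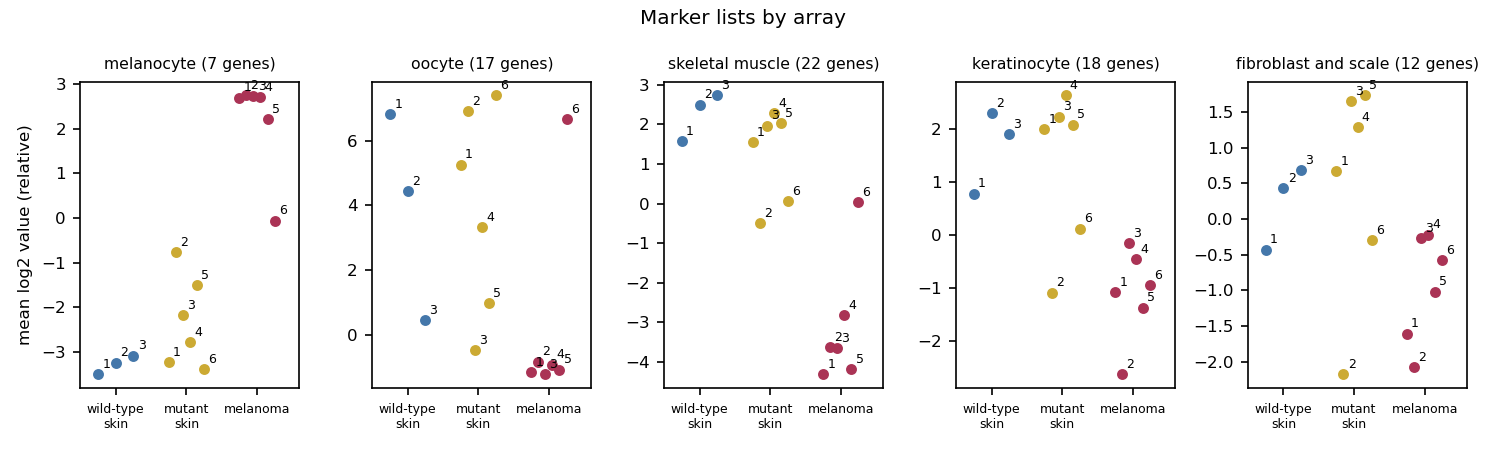
Mean log2 value (relative, vertical axis) of 5 marker lists in each array, with array numbers beside the points. Melanoma 1 to 5 share high melanocyte and low oocyte levels, and melanoma 6 lies between them and the skin arrays for melanocyte genes and among the 7 arrays with high oocyte genes.

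Many Hox probe sets barely moved. The SD over the 15 arrays was under 0.5 in 22 of 59 members (37.3%, against 23.5% of all probe sets) and at least 1 in 25 (42.4%, against 35.2%). The spread was uneven along the clusters. Members of paralogue group 1 were flat: hoxa1a, hoxb1a, which patterns the hindbrain of the zebrafish embryo, and hoxc1a, which mammals lack, had SDs of 0.38, 0.38 and 0.27. In group 2 the sets of hoxb2a had 0.45 and 0.49. For hoxa2b, which sets the identity of the second pharyngeal arch in zebrafish, the SD was 0.50. It read -0.96, -0.33 and 0.43 in wild-type skin and -1.36 to -0.88 in melanoma (-0.88 ± 0.31, adjusted p = 0.0725 by limma). Among central and tail-end members hoxa5a, hoxb5b and hoxd13a were as flat as group 1, with SDs of 0.23, 0.30 and 0.29. Because the baseline is not known, a flat probe set may be one that reads a steady transcript or one that reads none.

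Part of the flatness goes with probe design. Of 8 genes with an S and an A probe set designed from the same accession (hoxa10b, hoxb7a, hoxb8a, hoxb10a, hoxb8b, hoxc8a, hoxc11a and hoxd3a), the S set varied more in 8 of 8. The A sets had SDs of 0.23 to 0.31 and the S sets 0.36 to 1.74. For hoxc11a the values were 0.31 and 1.74, and for hoxd3a 0.23 and 0.77. The name alone does not decide this, since 16 members are named A and those of hoxb9a (Dr.21414.1.A1_at), hoxb10a (Dr.21613.1.A1_at), hoxc8a (Dr.2967.1.A1_at) and hoxc13a follow the pattern of the arrays described below. For the 7 genes with 2 sets of an SD of at least 0.5, these sets rose and fell together over the same 15 RNA samples: Pearson's r was 0.97 for hoxb9a and hoxc11a, 0.96 for hoxb10a, 0.93 for hoxb8a, hoxc8a and hoxd4a, and 0.81 for hoxa3a. Where 1 or both sets were flat, r ran from 0.18 for hoxc11a and 0.27 for hoxd3a to 0.92 for hoxa9a. These correlations describe probe sets that share RNA and array.

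**Figure D2:**
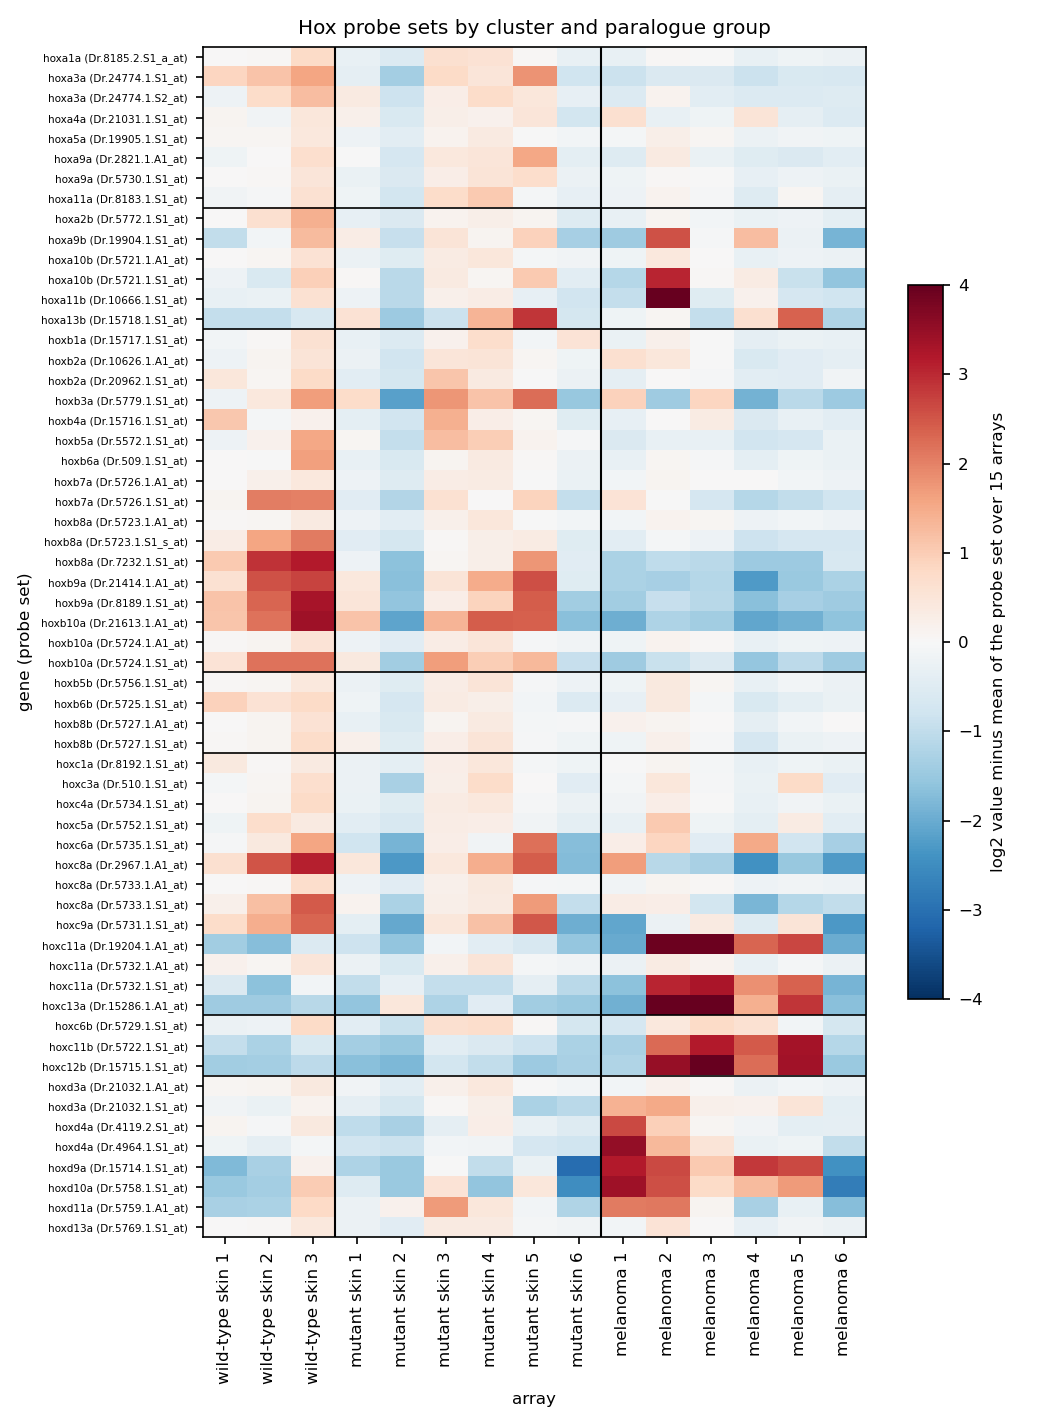
All 59 Hox probe sets (rows, ordered by cluster and then paralogue number) in the 15 arrays (columns, by group), coloured by log2 value minus the mean of the probe set over the arrays; colours stop at 4 in either direction. Red blocks in melanoma sit at hoxc11a, hoxc11b, hoxc12b and hoxc13a (melanoma 2 to 5) and in the hoxd cluster (melanoma 1 and 2), and wild-type skin 2 and 3 are red at hoxb7a to hoxb10a.

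The first comparison asked how the tumours differ from the skin beside them. Genes of the tail-end paralogue groups moved both ways: hoxc12b, hoxd9a and hoxc11b rose 9.82-fold, 7.08-fold and 5.50-fold, and hoxb9a (Dr.21414.1.A1_at) fell 3.84-fold. That is 4 of 59 members (6.78%) at an adjusted p under 0.05, against 10.8% of all probe sets (6.44% higher and 4.35% lower), so Hox probe sets were not called more often than others. No member separated the 6 melanomas from the 6 mutant skin arrays in either direction, where 1.40% of all probe sets were higher and 0.961% lower without overlap. The median change was -0.05 over the members and 0.00 over all probe sets. At an unadjusted p under 0.05 the count was 14 of 59 members, and 25.5% of all probe sets. With genes (the mean of their sets) in place of probe sets, 3 of 42 were higher (7.14%, against 7.41% of all genes). None was lower (against 5.63%), and hoxb9a missed (adjusted p = 0.0657 by limma).

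By position, which was described and not tested, among 17 probe sets of the head-end paralogue groups 1 to 4 the median change was -0.07 and none passed the test, and among 18 of the central groups 5 to 8 it was -0.06 and none passed. The 24 of the tail-end groups 9 to 13 held the 4 calls and spanned -2.29 to 3.30, with a median of -0.02. By cluster, hoxcb had the highest median (2.46, with 2 of 3 probe sets higher), then hoxda (1.05, 1 of 8 higher). In the hoxba cluster 16 of 17 changes were negative, with a median of -0.30 and 1 lower. Flat sets are among the negative ones, such as the A sets of hoxb8a (-0.05) and hoxb10a (-0.10). The medians were -0.23 for hoxaa, -0.03 for hoxab, -0.04 for hoxbb and 0.00 for hoxca, with no call in these 4 clusters.

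**Figure D3:**
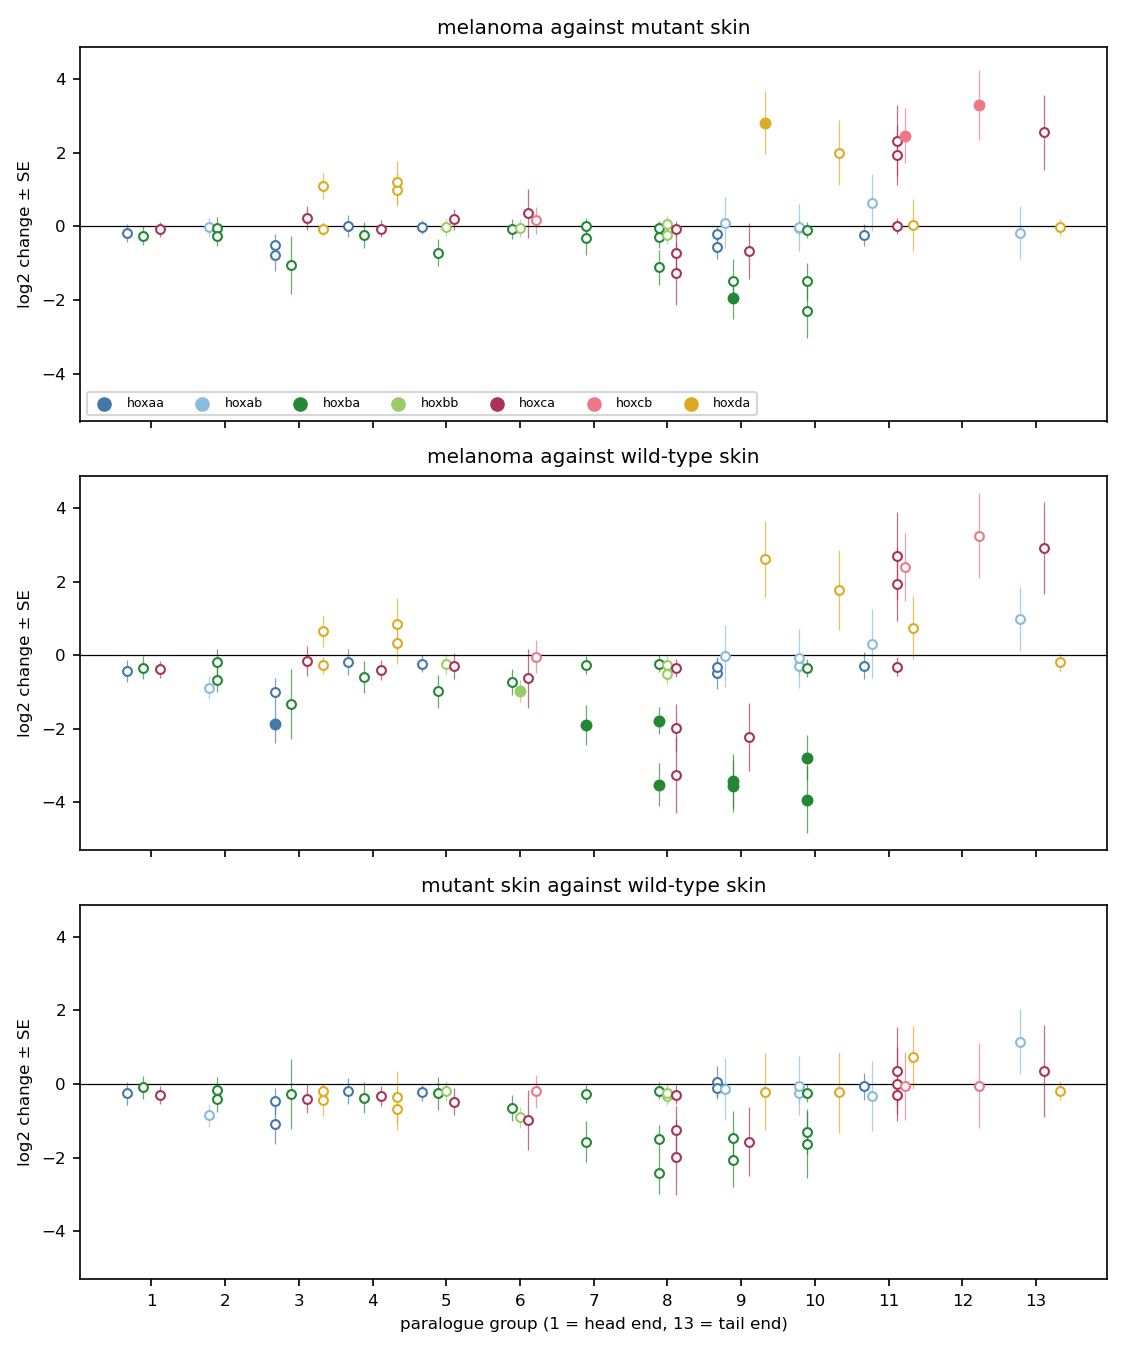
Log2 change ± SE of each Hox probe set (vertical axis) by paralogue group (horizontal axis, head end to tail end), coloured by cluster; panels are the 3 comparisons and filled points have an adjusted p under 0.05. Against mutant skin the filled points are 3 higher and 1 lower in groups 9 to 12, against wild-type skin 9 lower, and none is filled between the skins.

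The tail-end genes hoxc11a, hoxc11b, hoxc12b and hoxc13a of the hoxc clusters gave the clearest division among the tumours. The tail-end gene hoxc9a did not rise above skin. Melanoma 2 to 5 read -0.32, 0.27, -0.62 and 0.43 there, melanoma 1 and 6 read -2.17 and -2.40, and mutant skin reached 2.40. For hoxc11b the 3 wild-type arrays read -0.07, -0.39 and 0.26, and mutant skin ran from -0.64 (median -0.17) to 0.44. Melanoma 2 to 5 read 3.13, 4.05, 3.33 and 4.21, and melanoma 1 and 6 read -0.43 and -0.26. Thus 4 tumours lay above every skin array by more than 2 log2 units and 2 lay within the skin range. Melanoma 6, 1 of these 2, differed little from skin over the whole array. Of all its probe sets 0.535% lay more than 1 log2 unit above every skin array, against 5.53% to 6.59% in melanoma 1 to 5. Its melanocyte level was the lowest of the tumours (-0.06). The part of this in its low hoxc and hoxd values was not tested. Over the 6 melanomas the change of hoxc11b was 2.46 ± 0.75 (SE, adjusted p = 0.0483 against mutant skin by limma), with group levels of 2.34 ± 2.12 (SD, n = 6) and -0.12 ± 0.44 (SD, n = 6).

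The same tumours were high for hoxc12b, the next gene of the cluster in the RefSeq table. Melanoma 2 to 5 read 3.74, 5.65, 2.5 and 3.62, while melanoma 1 and 6 read -0.93 and -1.22. Wild-type skin read -1.14, -1.11 and -0.80, and mutant skin ran from -1.55 (median -1.11) to -0.48. Again melanoma 1 and 6 stayed at the level of skin, and the change was 3.30 ± 0.95 (adjusted p = 0.0389). The gene hoxc13a belongs to the group whose mouse counterpart Hoxc13 is needed for hair and nails. It read 5.99, 5.47, 2.66 and 4.10 in melanoma 2 to 5 and -0.67 and -0.44 in melanoma 1 and 6. Mutant skin 2, the array with the highest melanocyte level of the skins (-0.76), stood at 1.70, above the other 5 mutant skin arrays (-0.34 to 0.79) and the wild-type arrays (-0.17, -0.17 and 0.14). Yet it was the lowest mutant skin for hoxc11b (-0.64) and hoxc12b (-1.55). For hoxc11a it was the lowest on Dr.19204.1.A1_at (-0.88) and the highest on Dr.5732.1.S1_at (0.35). For hoxc13a the melanomas were compared with mutant skin as above. The hoxc13a change of 2.55 ± 1.02 did not pass (adjusted p = 0.126).

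For hoxc11a, a gene of the group that patterns the sacral region in the mouse, melanoma 2 to 5 read 4.62, 4.63, 3.04 and 3.39 on Dr.19204.1.A1_at and 3.74, 3.93, 2.5 and 3.03 on Dr.5732.1.S1_at. The highest of the 9 skin arrays was 0.60 and 0.58, and melanoma 1 and 6 read -1.29 and -1.28 on the first set and -0.97 and -1.18 on the second. Both sets therefore placed the tumours in the same 2 divisions, and neither change passed (2.33 ± 0.97, adjusted p = 0.143, and 1.94 ± 0.82, adjusted p = 0.149). Whether probes of hoxc11a and hoxc11b read each other's transcript was not tested.

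**Figure D4:**
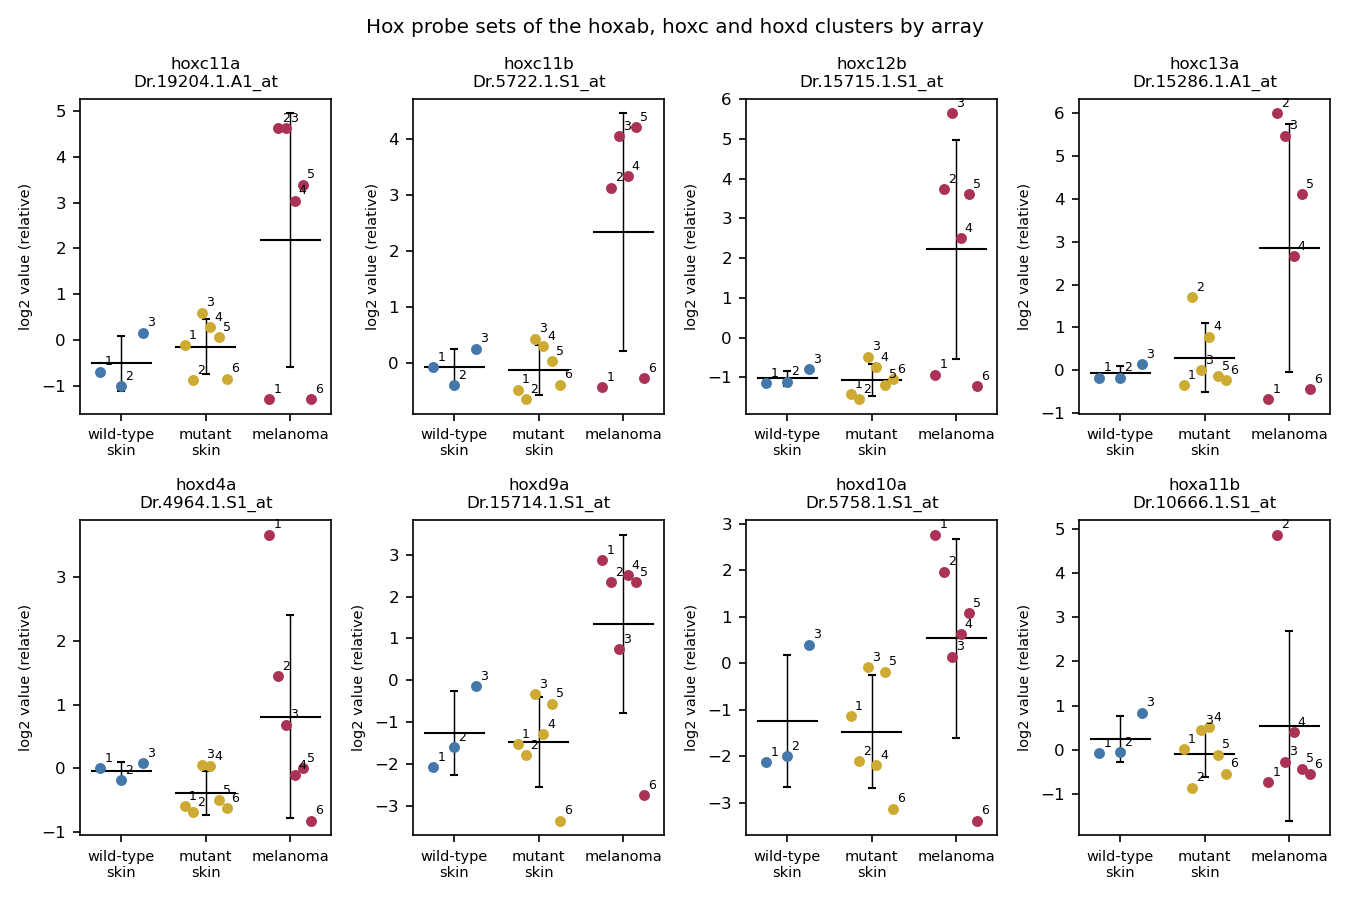
Log2 value (relative, vertical axis) of 8 Hox probe sets (for each gene the set with the largest SD) in each array of the 3 groups, with array numbers, group mean (line) and SD (bars). In the hoxc panels melanoma 2 to 5 lie above all 9 skin arrays, while melanoma 1 and 6 lie among the skins for hoxc11b and hoxc12b and below them for hoxc11a and hoxc13a, hoxd4a and hoxd10a are highest in melanoma 1, and hoxa11b is high in melanoma 2 alone.

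The hoxd genes followed another division. For hoxd9a, of a cluster used in the fins and limbs, melanoma 1 to 5 read 2.88, 2.35, 0.74, 2.51 and 2.34, above every skin array, and melanoma 6 read -2.74. Wild-type skin read -2.07, -1.60 and -0.14 and mutant skin ran from -3.36 (median -1.41) to -0.33. The change was 2.82 ± 0.85 (adjusted p = 0.0454). For hoxd10a, whose mouse counterpart acts in lumbar motor neurons and the hind limb, melanoma 1 and 2 were highest at 2.76 and 1.97, melanoma 3 to 5 read 0.14, 0.63 and 1.08, and melanoma 6 read -3.38. Wild-type skin 3 stood at 0.40, within the range of melanoma 3 and 4, and the change of 2.00 ± 0.89 did not pass (adjusted p = 0.173).

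Melanoma 1, which lacked the high values of hoxc11a, hoxc11b, hoxc12b and hoxc13a, had the highest hoxd4a values. They were 3.67 and 2.74 on the 2 sets of hoxd4a (Dr.4964.1.S1_at and Dr.4119.2.S1_at), against highest skin values of 0.08 and 0.49. Melanoma 2 followed with 1.45 and 1.05, and the other 4 melanomas ran from -0.82 to 0.69 on the first set and from -0.29 to 0.18 on the second. The changes were 1.2 ± 0.57 and 1.00 ± 0.46 (adjusted p = 0.204 and 0.192). For hoxd3a (Dr.21032.1.S1_at) melanoma 1 and 2 read 1.22 and 1.34, the other melanomas -0.55 to 0.35 and the skin arrays -1.44 to 0.07; the change of 1.1 ± 0.36 gave an adjusted p of 0.0631. For hoxd11a melanoma 1 and 2 were also the highest (2.06 and 2.1), but mutant skin 3 reached 1.70 and wild-type skin 3 reached 0.80. At the tail end of the cluster hoxd13a was flat. So within hoxda the tumours with the highest values were melanoma 1 and 2 for hoxd3a, hoxd4a, hoxd10a and hoxd11a, and only melanoma 6 was low for hoxd9a.

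A further pattern was found in melanoma 2 alone. Of the hoxab genes, hoxa11b, which is used in the fin buds of zebrafish, read 4.87 there and -0.73 to 0.39 in the other 5 melanomas, with a highest skin value of 0.84. For hoxa10b (Dr.5721.1.S1_at) melanoma 2 read 2.84, the next melanoma 0.13 and the highest skin array 0.85. For hoxa9b it read 2.15, the next melanoma (melanoma 4) 0.84 and the highest skin array 0.88. Their group changes were between -0.03 and 0.64, and none passed the test. The tail-end gene hoxa13b of the same cluster did not share this: melanoma 2 read 0.85 there.

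Counted per tumour, members more than 1 log2 unit above the highest of the 9 skin arrays numbered 5 in melanoma 1 (8.47% of members, against 5.75% of all probe sets), 12 in melanoma 2 (20.3% against 6.59%), 5 in melanoma 3 (against 5.95%), 5 in melanoma 4 (against 5.53%), 6 in melanoma 5 (10.2% against 6.02%) and 0 in melanoma 6 (against 0.535%). In melanoma 1, 3 and 4 the share lies near that of all probe sets. All 5 in melanoma 1 were hoxd genes. The 12 of melanoma 2 were hoxa9b, hoxa10b, hoxa11b, both sets of hoxc11a, hoxc11b, hoxc12b, hoxc13a, hoxd3a, 1 set of hoxd4a, hoxd9a and hoxd10a. Melanoma 3, 4 and 5 each had both sets of hoxc11a, hoxc11b and hoxc12b, with hoxc13a in melanoma 3 and 5 and hoxd9a in melanoma 4 and 5. The 18 members of paralogue groups 5 to 8 gave 0 in every melanoma, and 0 of 59 members lay more than 1 log2 unit below the lowest skin array in any of the 6 tumours, against 3.10%, 3.15%, 2.44%, 2.68%, 3.00% and 0.342% of all probe sets in melanoma 1 to 6.

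The 3 rises lay near the threshold, with adjusted p of 0.0389 to 0.0483 by limma. Fits without 1 array called 6.37% (without melanoma 5) to 20.0% (without melanoma 6) of all probe sets, against 10.8% with all arrays. Leaving out 1 array at a time ended the call of hoxc11b in 13 of 15 fits (all but those without melanoma 1 or 6), of hoxc12b in 12 (all but those without melanoma 1, melanoma 6 or wild-type skin 1) and of hoxd9a in 14 (all but that without melanoma 6), with adjusted p up to 0.114, 0.0913 and 0.104. Without melanoma 6, the array with high oocyte genes, 9 of 59 members were called (15.3%, against 20.0% of all probe sets), 8 of them higher: hoxc11b (2.98 ± 0.66, adjusted p = 0.00605), hoxc12b (3.99 ± 0.82, 0.00375), hoxc13a (3.21 ± 0.93, 0.0255), both sets of hoxc11a, hoxd3a (1.29 ± 0.35, 0.0183), hoxd9a (3.64 ± 0.55, 0.000447) and hoxd10a (2.78 ± 0.66, 0.00951). Without the 7 arrays with high oocyte genes, which leaves 5 melanomas, 2 mutant skins and 1 wild-type skin, 8 members were called (against 19.1% of all probe sets). The single rise was hoxd9a (2.61 ± 0.53, adjusted p = 0.0106), and 7 members fell: hoxa3a, hoxb5a, hoxb8a (-2.16 ± 0.44, 0.0101), both sets of hoxb9a and both varying sets of hoxb10a, so that head-end and central members were among the calls, while hoxc11b (2.62 ± 1.1, 0.141) and hoxc12b (3.75 ± 1.41, 0.101) did not pass.

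The second comparison set the tumours against wild-type skin of the flank. Tumour state, genotype and strain differ together in it, and the body site of the tumours is not given. Here the calls were all on the low side and sat mainly in the hoxba cluster. They were the central genes hoxb7a and hoxb8a and the tail-end genes hoxb9a and hoxb10a, joined by hoxb6b of hoxbb and hoxa3a of hoxaa. The largest changes were 15.2-fold for hoxb10a (Dr.21613.1.A1_at), 11.8-fold for hoxb9a (Dr.8189.1.S1_at) and 11.5-fold for hoxb8a (Dr.7232.1.S1_at). In all 9 of 59 members fell (15.3%, against 6.36% of all probe sets lower) and 0 rose (against 7.46%). Both directions together came to 13.8% of all probe sets. The 9 include 2 sets each of hoxb8a, hoxb9a and hoxb10a. With genes (the mean of their sets) in place of probe sets, 6 of 42 were lower (14.3%, against 7.48% of all genes). None was higher (against 9.34%). By limma hoxb7a then missed (adjusted p = 0.0568) and hoxc8a passed (0.0463). In 11 of 59 members the 6 melanomas lay below all 3 wild-type arrays (18.6%, against 8.37% of all probe sets), and in 0 above (against 7.59%). At an unadjusted p under 0.05 the count was 20 of 59 and 27.7% of all probe sets. The median change was -0.31 over the members and -0.13 over all probe sets.

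By position, the 18 central members had a median of -0.56 and were negative in 18 of 18, with 4 lower. The 24 tail-end members had a median of -0.14 and 4 lower, and the 17 head-end members -0.39 and 1 lower. The hoxba cluster was negative in 17 of 17, with a median of -0.98 and 7 lower. Both sign counts include flat sets, such as the A sets of hoxb7a (-0.26) and hoxb8a (-0.23). Flat sets of hoxda moved about as much (-0.27 for the A set of hoxd3a and -0.20 for hoxd13a). The share of negative changes over all probe sets is not given here, so the signs alone do not show a fall of the whole cluster. The hoxcb and hoxda medians were 2.40 and 0.71, without a call.

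For hoxb8a, of a group that patterns the trunk and whose mouse counterpart Hoxb8 also marks a blood cell lineage, Dr.7232.1.S1_at read 1.39, 3.26 and 3.54 in wild-type skin. The melanomas ran from -1.1 (median -0.81) to -0.30, all below wild-type skin. Mutant skin ran from -1.27 (median 0.28) to 2.11. Only mutant skin 5, at 2.11, reached the wild-type range, and the other mutant skins read -1.27 to 0.60. Mutant skin itself was lower than wild-type skin by -2.41 ± 0.59, which did not pass (adjusted p = 0.191 by limma). The change of melanoma against wild-type skin was -3.52 ± 0.59 (adjusted p = 0.00224), with levels of -0.79 ± 0.31 (SD, n = 6) and 2.73 ± 1.17 (SD, n = 3). A second set, Dr.5723.1.S1_s_at, gave -1.78 ± 0.37 (adjusted p = 0.0066), while its A partner was flat.

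Its neighbour hoxb9a, whose mouse counterpart shapes the ribs, read 1.59, 2.76 and 3.72 in wild-type skin on Dr.8189.1.S1_at and ran from -1.22 (median -0.93) to -0.48 in melanoma. Mutant skin ran from -1.14 (median 0.80) to 2.87. Only mutant skin 5 (2.87) reached the wild-type range. Mutant skin 2 and 6 lay at the melanoma level (-1.14 and -0.96), and mutant skin 1, 3 and 4 lay between (0.91, 0.69 and 1.32). The change of melanoma against wild-type skin was -3.56 ± 0.71 (adjusted p = 0.00531), and the other set gave -3.41 ± 0.73 (adjusted p = 0.00717). On that other set hoxb9a was also the single Hox call below mutant skin (-1.94 ± 0.59, adjusted p = 0.0489), while Dr.8189.1.S1_at gave -1.48 ± 0.58 (adjusted p = 0.119). The call against mutant skin was lost in 11 of 15 fits that left out 1 array, with adjusted p up to 0.108. It held only without mutant skin 2 or 6, melanoma 6 or wild-type skin 1.

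The gene hoxb10a, which fish have and mammals lack, read 2.14, 3.19 and 4.41 in wild-type skin on Dr.21613.1.A1_at and ran from -1.06 (median -0.76) to -0.23 in melanoma. In mutant skin 4 arrays reached the wild-type range (2.15, 2.38, 3.45 and 3.42 in mutant skin 1, 3, 4 and 5) and mutant skin 2 and 6 lay at the melanoma level (-1.1 and -0.66). Against wild-type skin the 2 varying sets gave -3.93 ± 0.91 (adjusted p = 0.0111) and -2.79 ± 0.61 (0.0086), and against mutant skin -2.29 ± 0.74 (0.0616) and -1.49 ± 0.50 (0.0717).

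**Figure D5:**
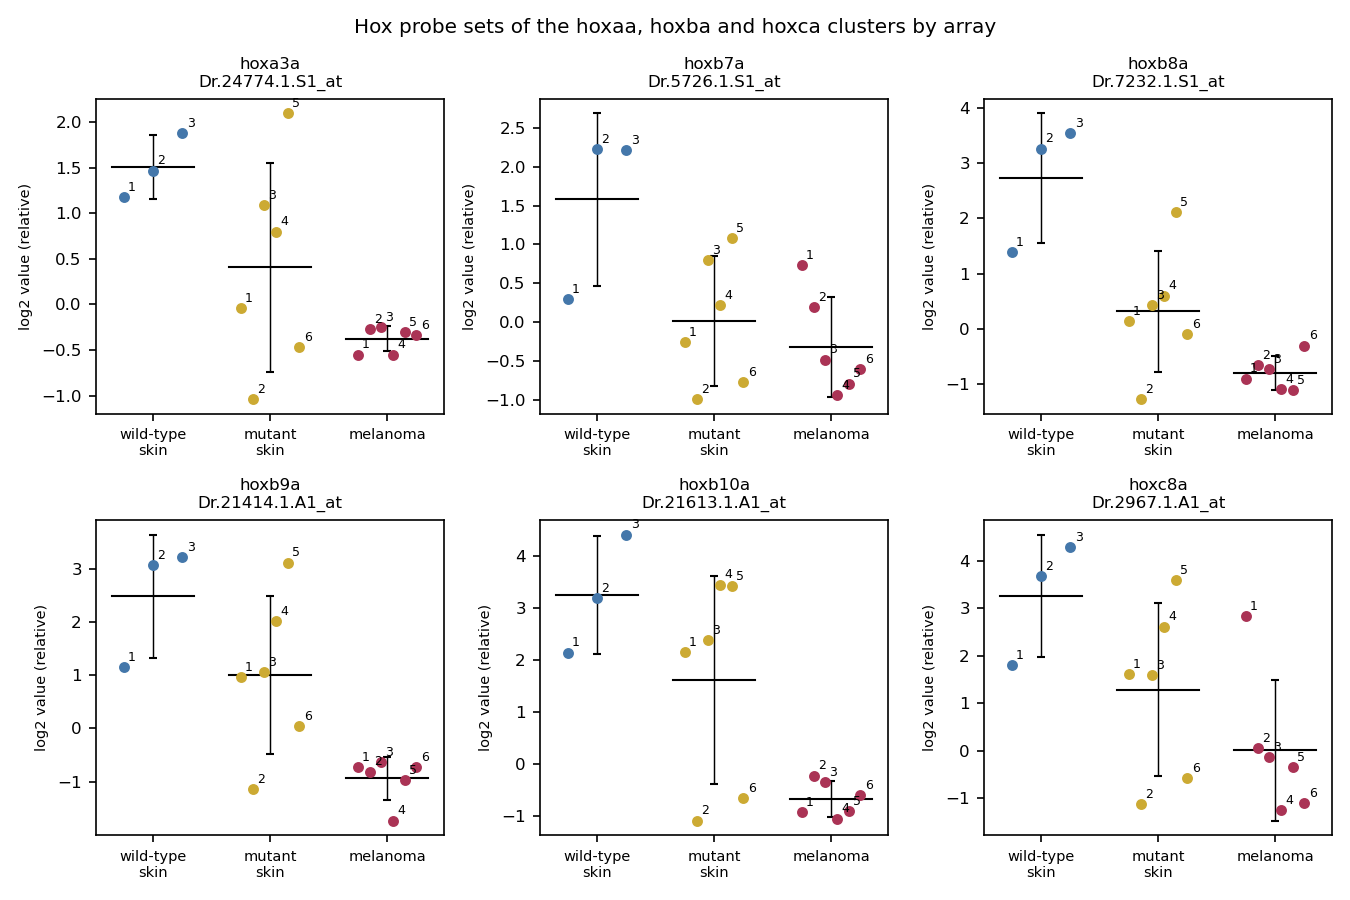
Log2 value (relative, vertical axis) of 6 Hox probe sets (for each gene the set with the largest SD) in each array of the 3 groups, with array numbers, group mean (line) and SD (bars). Melanomas lie below all 3 wild-type skins for hoxa3a, hoxb8a, hoxb9a and hoxb10a, and melanoma 1 stands out for hoxc8a. Mutant skin runs from at or near the melanoma level into the wild-type range, which only number 5 reaches for hoxb8a, with numbers 2 and 6 lowest in most panels.

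The remaining calls were smaller. For hoxb7a (Dr.5726.1.S1_at) the change was -1.90 ± 0.55 (adjusted p = 0.0345), but melanoma 1 at 0.73 lay above wild-type skin 1 at 0.30. For hoxb6b it was -0.97 ± 0.29 (0.0388), with no overlap. The head-end gene hoxa3a, of a group that in the mouse is needed for the thymus and parathyroid, read 1.18, 1.47 and 1.88 in wild-type skin and -0.55 to -0.25 in melanoma on Dr.24774.1.S1_at (-1.88 ± 0.52, adjusted p = 0.026); its second set gave -0.99 ± 0.37 (0.0927). The non-overlapping members that missed the test were hoxc9a, hoxb5a and 1 set of hoxb2a. For hoxc9a, which sets thoracic motor neuron identity in the mouse, wild-type skin read 0.65, 1.37 and 2.24 and melanoma -2.40 to 0.43 (-2.22 ± 0.93, adjusted p = 0.134).

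The central genes hoxc6a and hoxc8a of hoxca were spread more widely among the tumours. On Dr.2967.1.A1_at hoxc8a read 1.81, 3.69 and 4.29 in wild-type skin and -1.26 to 0.05 in melanoma 2 to 6, but 2.84 in melanoma 1 (-3.26 ± 1.04, adjusted p = 0.0512). The varying S set gave -1.98 ± 0.65 (0.0583). For hoxc6a melanoma 4 and 2 read 1.88 and 1.23, within the wild-type values of 0.32, 0.75 and 1.92. Among the head-end genes hoxb3a varied most (SD 1.48) and did so within each group, from -2.03 to 2.38 in mutant skin and from -1.76 to 1.06 in melanoma, with no call.

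Markers of some other cell types were also lower in melanoma. In the first comparison, against mutant skin, 20 of 28 skeletal muscle and 11 of 21 keratinocyte probe sets were lower, where 4.35% of all probe sets were. Against wild-type skin 23 of 28 skeletal muscle and 13 of 21 keratinocyte probe sets were lower, against 6.36% of all probe sets. Of the fibroblast and scale list 1 of 16 was lower. Of the neural and spinal cord list 4 of 18 were lower and 2 higher (against 7.46% of all probe sets higher). Lower probe sets numbered 0 of 14 for kidney and mesonephros, 0 of 12 for intestine, liver and pancreas, and 1 of 14 for blood and immune genes. The mean of the 13 measured neural genes ran from 0.22 to 1.15 in wild-type skin, from -0.79 to 0.10 in mutant skin and from -0.39 to 0.22 in melanoma. That of the 8 measured kidney genes was -0.80, -0.75 and 1.05 in wild-type skin 1, 2 and 3. It ran from -0.83 to 0.30 in mutant skin and from -0.71 to -0.15 in melanoma. Wild-type skin 3 was thus the highest array for both lists. The part of these cell types in the result was not tested. Melanoma 6 had the highest muscle level of the tumours (0.04), below wild-type skin (1.58 to 2.73) and near mutant skin 6 (0.06). Its keratinocyte level was -0.95, within the range of the other melanomas. On the sets above hoxb8a, hoxb9a and hoxb10a read -0.30, -0.98 and -0.60 in melanoma 6, within or just above the range of the other melanomas. In mutant skin 6 they read -0.10, -0.96 and -0.66. Without the 7 arrays with high oocyte genes 13 members were lower and 0 higher (against 10.0% of all probe sets lower), where the spread of the lone wild-type array is borrowed from the other 2 groups. Leaving out 1 array at a time gave no fit in which Dr.7232.1.S1_at (hoxb8a) or Dr.8189.1.S1_at (hoxb9a) missed the threshold. Without wild-type skin 3 the other 7 calls were lost and 2 of 59 members were lower (3.39%, against 5.47% of all probe sets called). Without wild-type skin 2 it was 5 (8.47% against 5.55%), with hoxa3a, hoxb7a, hoxb6b and 1 set of hoxb10a lost in both. With all arrays 13.8% of all probe sets were called, so calls fell over the whole array as well. Without melanoma 6 there were 16 calls, 9 lower and 7 higher (against 20.0% of all probe sets in either direction); the higher ones included hoxd9a (3.43 ± 0.67, adjusted p = 0.00259), hoxc12b (3.93 ± 0.99, 0.0124) and hoxc11b (2.92 ± 0.80, 0.0191). The call of hoxb6b was lost in 9 of 15 fits that left out 1 array (without mutant skin 1 or 5, melanoma 1, 3, 4 or 5, or any wild-type skin), and that of hoxb7a in 5 (without melanoma 3, 4 or 5, or wild-type skin 2 or 3).

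The comparison of the 2 kinds of skin gave no Hox call: 0 of 59 members by limma, against 0.194% of all probe sets. At an unadjusted p under 0.05 there were 6, all lower (against 4.69% of all probe sets lower and 7.17% in either direction). Changes were negative in 54 of 59 members with a median of -0.28, where the median of all probe sets was -0.11. The share of negative changes over all probe sets is not given here. Centring arrays on their medians moves the change of every probe set by the same amount. It gave medians of -0.13 and 0.04, so it cannot show the source of the lower Hox median. Groups did not overlap in 1 member, hoxb6b, which was lower (-0.91 ± 0.29, adjusted p = 0.399), against 1.61% of all probe sets lower and 1.50% higher. The most negative change was -2.41 ± 0.59 for hoxb8a (adjusted p = 0.191). This comparison and the last share the 3 wild-type arrays.

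Within mutant skin the arrays differed from each other. Members more than 1 log2 unit below all 3 wild-type skins numbered 16 in mutant skin 2 (27.1%, against 12.2% of all probe sets) and 15 in mutant skin 6 (25.4% against 8.10%). They numbered 3 in mutant skin 1 (against 2.31%), 1 in number 5 (1.94%), and 0 in numbers 3 (2.78%) and 4 (2.55%). In both arrays they included hoxa3a, hoxb3a, hoxb7a, hoxb8a, hoxb9a, hoxb10a, hoxb6b, hoxc6a, hoxc8a and hoxc9a. These are the 2 arrays with the lowest muscle and keratinocyte levels among mutant skin and the highest oocyte levels (6.91 and 7.39). The array median over all probe sets was -0.55 in mutant skin 2 and -0.26 in mutant skin 6. In wild-type skin it was -0.13, -0.10 and 0.10. The part of these levels and medians in the result was not tested.

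On the high side 1 gene recurred. Members more than 1 log2 unit above all 3 wild-type skins numbered 1 in mutant skin 1, 2, 4 and 5 (against 2.14%, 5.57%, 5.10% and 4.55% of all probe sets) and 0 in numbers 3 and 6 (5.39% and 6.66%). It was hoxc13a in number 2 and hoxa13b in the others. The gene hoxa13b is one of the hox13 genes that zebrafish need to form fin rays. It read 1.35, 2.11 and 3.63 in mutant skin 1, 4 and 5, against -0.20, -0.21 and 0.12 in wild-type skin. The other mutant skin arrays read -0.71, -0.09 and 0.05. Among melanomas it was highest in melanoma 5 (3.13) and melanoma 4 (1.39), followed by melanoma 2 (0.85) and melanoma 1 (0.59), with melanoma 3 and 6 at -0.19 and -0.45. The change between the skins was 1.15 ± 0.88 (adjusted p = 0.971), so the group difference did not exceed the spread among arrays, and the high values were found in tumour and mutant skin arrays and in none of the 3 wild-type arrays.

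Hox proteins bind DNA with partners of the Pbx, Meis and Pknox families, and 16 probe sets measured 12 of the 14 listed cofactor genes. Of these 1 rose and 2 fell against mutant skin, and 1 rose and 4 fell against wild-type skin, with medians of -0.40 and -0.74. Over all probe sets 10.8% and 13.8% were called, with medians of 0.00 and -0.13. The rise was pknox1.2, 10.7-fold against mutant skin (3.43 ± 0.66, adjusted p = 0.00569) and 2.69 ± 0.81 on the log2 scale against wild-type skin (0.0395). The falls were 1 of 2 sets of meis1a (-1.72 ± 0.46, 0.0294, and -1.98 ± 0.57, 0.0316) and 1 of 3 sets of pbx1a (-1.67 ± 0.42, 0.0201, and -1.98 ± 0.51, 0.0188), and against wild-type skin also meis2a (-1.89 ± 0.60, 0.0479) and the second set of meis1a (-1.92 ± 0.46, 0.0133), which missed against mutant skin (-1.06 ± 0.38, 0.0871). The other sets of pbx1a missed in both comparisons: they gave -1.24 ± 0.41 (0.0674) and -0.18 ± 0.21 (0.694) against mutant skin, and -1.22 ± 0.50 (0.127) and -0.82 ± 0.26 (0.0509) against wild-type skin. Between the skins none of the 16 passed.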

How the data were processed

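The authors deposited log2 values for 15 arrays, made with GCRMA (which corrects Affymetrix signals for background and normalizes them between arrays) per the submitters' processing notes, which give no version. The undefined baseline per probe set leaves absolute levels and nearness to background unknown, and the number of arrays limits the precision. Groups came from the sample titles: 6 melanoma, 6 mutant skin and 3 wild-type skin arrays. Nothing says that samples are separate fish, so p-values measure the spread between these samples.

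Of 15617 probe sets 115 controls were left out. One linear model of the 3 groups was fitted to 15502 probe sets with limma 3.58.1 in R 4.3.3 (lmFit, eBayes, 12 residual degrees of freedom). Tests were two-sided with Benjamini-Hochberg adjustment over 15502 probe sets within each comparison, with a threshold of 0.05. Errors of changes are standard errors. Of the probe sets 10795 carried 1 symbol, 135 several and 4572 none. A set was called flat at an SD under 0.5. The code was tested on simulated data. Figures used matplotlib 3.10.9 in Python 3.11.15.

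Members, marker lists and pathway lists were chosen with earlier results of these data known. Members named with values are those called in any comparison, the 5 highest and the 5 lowest changes per comparison, genes with several probe sets, and up to 3 called genes per pathway list. Others were named after their values were seen (hoxa1a, hoxb1a, hoxc1a, hoxa2b, hoxa5a, hoxb5b, hoxd13a, hoxa9b, hoxa11b, hoxb3a, hoxb5a, hoxc6a, hoxd10a). Alternatives were quantile normalization, centring, weights for array quality, trended and robust eBayes, only the groups compared, controls kept, a replicate block, genes (the mean of their sets) in place of probe sets, and leaving out each array; leaving out arrays with an oocyte level over 3 log2 units above the lowest, and that level as a covariate, were added after seeing the data. Sequences were not used here.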

Additional observations from a re-analysis of the deposited data

Results flagged for a closer look

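In 5 of the 118 groups of 6 arrays examined, 1 array stood far from the other 5 of its group by Dixon's test, and chance alone flags about 1 in 20. In melanoma 2 hoxa11b read 4.87 (the others -0.73 to 0.39), hoxa3a on Dr.24774.1.S2_at read 0.23 (the others -0.44 to -0.32) and hoxa9a on Dr.2821.1.A1_at read 0.22 (the others -0.69 to -0.38). In melanoma 1 hoxc8a on Dr.2967.1.A1_at read 2.84 (the others -1.26 to 0.05). In melanoma 4 hoxb9a on Dr.21414.1.A1_at read -1.73 (the others -0.97 to -0.63).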

How the results depend on the processing

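The count of Hox probe sets called against mutant skin was 4, and it became 7 with quantile normalization (11.9% of members, 14.6% of all probe sets), 7 with arrays centred on their medians (11.8% of all), 16 with array quality weights, whose estimation stopped short of its tolerance (27.1% of members, 27.7% of all), 2 with trend and robust (10.6% of all), 0 with only the 2 groups compared (8.13% of all), 8 without the arrays with high oocyte genes (19.1% of all) and 10 with the oocyte covariate (17.5% of all probe sets). Leaving out 1 array at a time gave 0 to 9: 0 without any 1 of melanoma 2 to 5, of wild-type skin 2 and 3 and of mutant skin 1, 3, 4 and 5, 2 without wild-type skin 1, and 9 without melanoma 6. The fits with 0 members called 6.37% to 9.58% of all probe sets, that without wild-type skin 1 10.6% and that without melanoma 6 20.0%. With the oocyte covariate all 10 were lower, and hoxd9a was at 1.23 (adjusted p = 0.102). Against wild-type skin the count of 9 became 28 with array weights (47.5% of members, 55.1% of all) and 17 with the oocyte covariate (27.0% of all probe sets). With 1 array left out it was 2 (without wild-type skin 3, 5.47% of all) to 16 (without melanoma 6, 20.0% of all). Between the skins 0 became 10 with array weights (16.9% of members, 12.4% of all) and 1 with the covariate (0.690% of all). With 1 array left out it was 0 to 2: 1 without mutant skin 5 (0.200% of all) and 2 without wild-type skin 1 (0.348% of all). The cause of these shifts was not tested. Same-numbered melanoma and mutant skin arrays correlated at -0.07 to 0.70, over 0.1 in 4 of 6 pairs and best with their own number in 3 of 6. The highest value was that of number 6, where both arrays had high oocyte genes (6.67 and 7.39). The correlations do not settle whether a number marks 1 fish, and the labels do not say so. The main fit did not pair samples. The replicate block gave 3, 9 and 0 calls, where 15.8%, 17.7% and 0.142% of all probe sets were called. Against mutant skin it lost the fall of hoxb9a (adjusted p = 0.0518), and against wild-type skin 7 of 9 calls were shared, with hoxb7a (0.0921) and hoxb6b (0.132) lost and hoxc9a lower and hoxd9a higher (3.07, 0.0171) gained. Over named members and settings 729 results kept their direction and side of the threshold, 52 crossed to pass it, 88 to miss it and 6 changed sign. The 6 were small changes between the skins. For hoxa9a (Dr.2821.1.A1_at, 0.06) they were -0.01 with the replicate block, -0.20 without mutant skin 5, -0.11 without wild-type skin 1, -0.03 without wild-type skin 2 and -0.02 for genes; leaving out 1 array gave -0.20 to 0.32. For hoxc13a (0.36) it was -0.21 without the arrays with high oocyte genes. Over all probe sets the split of higher and lower calls was 998 and 675 against mutant skin, and 975 and 847 with centred arrays. The unknown baseline limits what a flat probe set can show.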

Other observations

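Genes that set up or keep Hox expression were counted in 3 lists. Of all probe sets 10.8% were called against mutant skin, 13.8% against wild-type skin and 0.194% between the skins. The lists are small and were not tested against these shares. Of 24 probe sets for 19 of 26 listed genes of Hox induction (retinoic acid, Cdx and Fgf or Wnt signalling), 0 passed in any of the 3 comparisons by limma. Of 18 for 13 of 20 listed Trithorax-group genes, which keep genes active, 0 passed. Their median changes against mutant skin were -0.50 and 0.44, where that of all probe sets was 0.00. Of 19 probe sets for 16 of 28 listed Polycomb-group genes, which keep Hox genes silent, 0 passed against mutant skin. Against wild-type skin 1 rose, rbbp7 (1.53 ± 0.40, adjusted p = 0.0196).

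Among 23 probe sets for 17 other position and appendage genes, 2 rose against mutant skin: tbx2b, a T-box factor that acts in eye, fin and pigment cell development (2.95 ± 0.69, adjusted p = 0.0155), and pax3a, a neural crest regulator (1.32 ± 0.37, 0.0338). Against wild-type skin 2 fell: tbx15, whose mouse counterpart acts in the skeleton and in coat pattern (-3.29 ± 0.98, 0.038), and sall4 (-0.98 ± 0.27, 0.029). A second set of each gene was also negative and missed (-1.19 ± 0.55, 0.175, for tbx15 and -1.87 ± 2.08, 0.571, for sall4). Background shares are 6.44% of all probe sets higher against mutant skin and 6.36% lower against wild-type skin.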
